A study of Mus musculus with 4 samples.

Results

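A set of 38 noncollagen stromal, vascular and matrix genes was followed, chosen by symbol from the 55367 gene rows of each count table, and all 38 symbols were present. They were taken as genes of fibroblasts, of mural cells (the smooth muscle cells and pericytes around vessels) and of endothelial cells (the lining of vessels). The libraries were 2 labeled WT and 2 labeled KO, made from polyadenylated RNA of mouse tumors of B16-F10, a transplanted mouse melanoma line. The cell type label reads CD45.2+, a surface protein of leukocytes, and the protocol describes a sort for CD45.2+CD8+ cells after tumor dissociation. The series concerns Satb1, a gene for a chromatin-organizing protein of T cells, and its design text names WT mice and mice whose Satb1 F/F alleles are cut by either E8I-cre or ThPOK-cre, drivers used for the CD8 and CD4 lineages of T cells. Which Cre driver stands behind KO, and the age and sex of the animals, were not in the labels, and nothing says whether libraries of a group came from separate tumors, so that p-values measure only the spread between these libraries, which may be technical.

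The extracellular matrix is built by proteins that fibroblasts secrete, among them glycoproteins, small proteoglycans and fibrillar collagens, and it is cut and restrained by matrix metalloproteinases and their tissue inhibitors. Blood vessels add endothelial cells, mural cells that carry contractile proteins, and a basement membrane of laminins, nidogen and perlecan. Several of these genes are not private to stroma: macrophages are known to make fibronectin, thrombospondin 1, vimentin and TIMP2, platelets and leukocytes carry Pecam1, and melanoma cells can express Sparc.

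Gene counts were between 4017875 and 5382915 per library, which was 20.5% to 28.8% of the reads in each table. Levels are given as normalized CPM, counts scaled to a common library total with trimmed mean of M-values factors, on which a count of 3 equaled 0.521 to 0.897. For Satb1, the targeted gene, the WT libraries held 7 and 5 counts against 131 and 55 for KO (edgeR log2 fold change 3.36, adjusted p = 0.115). T cell markers rose too, at a KO to WT ratio of 21.1 in mean share of gene counts. The level of Satb1 within T cells was not tested, and WT and KO stand for the labels throughout. T cell markers, which the sort should enrich, took 0.00672% and 0.0106% of gene counts in WT and 0.244% and 0.123% in KO, against 2.39% to 4.12% for macrophage or monocyte markers in all 4 libraries. The libraries also split by sex-linked genes, with Xist at 435 and 216 counts in WT and 0 and 3 in KO and Ddx3y at 0 and 0 in WT and 188 and 81 in KO. The label, the sex-linked split and the cell make-up cannot be told apart with these 4 libraries.

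Promoter sequence was on hand for 26 of the 38 genes in RefSeq (build GRCm38.p6). The 150 bases before the start are printed 5′ to 3′ for 6 genes whose window overlaps no GENCODE exon and that stand for the different behaviors described below: Serpinh1 (chr7:99353240-99353389, minus strand) and Bgn (chrX:73483451-73483600, plus) had more counts in the libraries labeled KO, Mmp14 (chr14:54431448-54431597, plus) and Timp1 (chrX:20870016-20870165, plus) are a protease and an inhibitor with counts in every library, and Eng (chr2:32646445-32646594, plus) and Flt1 (chr5:147726012-147726161, minus) are vascular receptors. Capitals mark the letters GGGCGG, known as the GC box, and CCAAT, on either strand, which run together at the end of the Mmp14 window. For Bgn and Mmp14 the first 25 bases after the RefSeq start were not found in a GENCODE transcript, whose gene start lies 1 and 14 bases further on.
Serpinh1: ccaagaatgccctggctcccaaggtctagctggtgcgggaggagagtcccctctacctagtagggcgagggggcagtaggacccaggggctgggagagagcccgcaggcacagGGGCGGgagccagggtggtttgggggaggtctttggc
Bgn: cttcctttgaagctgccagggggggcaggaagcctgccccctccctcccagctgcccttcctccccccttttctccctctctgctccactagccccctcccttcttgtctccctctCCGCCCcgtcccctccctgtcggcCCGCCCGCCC
Mmp14: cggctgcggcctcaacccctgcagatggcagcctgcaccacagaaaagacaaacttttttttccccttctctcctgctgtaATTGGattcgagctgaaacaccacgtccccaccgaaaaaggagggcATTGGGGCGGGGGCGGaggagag
Timp1: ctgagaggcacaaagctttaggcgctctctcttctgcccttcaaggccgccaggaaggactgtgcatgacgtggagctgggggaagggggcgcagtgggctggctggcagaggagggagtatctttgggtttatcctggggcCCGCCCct
Eng: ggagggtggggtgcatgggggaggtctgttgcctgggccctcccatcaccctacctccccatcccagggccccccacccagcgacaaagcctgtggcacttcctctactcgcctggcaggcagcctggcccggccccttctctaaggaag
Flt1: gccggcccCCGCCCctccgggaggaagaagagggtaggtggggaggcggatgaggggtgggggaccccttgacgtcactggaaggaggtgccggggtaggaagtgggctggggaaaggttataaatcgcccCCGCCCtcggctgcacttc

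Over the 250 bases before the start, GGGCGG on either strand was in 17 of the 26 genes (65.4%), against 32.7% of all 32851 promoters in the table. For each motif, a gene counted if any of its listed promoters held the letters, whereas the background counts single promoters. The shares of genes and of promoters are therefore not like measures. GGGCGG was in 7 of the 10 genes with at most 10 counts over both WT libraries and higher counts in both KO libraries. It was in 2 of the 4 with over 100 counts in every library. These are too few genes to show whether it marks out either kind. CCAAT was in 9 genes (34.6%, against 33.8% of all promoters). TATAAA was in 4, namely Flt1, Postn, Thbs2 and Vim (15.4%, against 12.4%), and the CArG box, a motif of smooth muscle genes, in Myl9 alone (3.85%, against 1.47%). The 6 printed windows held 57.3% to 70% G and C, against a median of 54% for all promoters. A match describes letters in this window and is not a measured site.

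No gene of the set passed the test between the groups. In edgeR's quasi-likelihood test, fitted over all 11837 genes with enough counts and adjusted by the Benjamini-Hochberg method, 0 of the 25 set genes that could be tested were past an adjusted p of 0.05 in either direction, against a background of 0.549% of genes called higher in KO and 0.0253% called lower. At an unadjusted p under 0.05, 12 of the 25 were higher (9.44% of all genes) and 2 were lower (4.23%). Both KO libraries lay above both WT libraries for 15 of the 25 (25.3% of all genes) and below them for 6 (22.6%). The median log2 fold change of the 25 was 0.94, against 0.05 for all genes tested. The other 13 had too few counts to be tested.

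The count of calls depended on the method and on each library. With no filter on low counts edgeR called 16 of 37 set genes higher (2.38% of all genes), DESeq2 called 8 of 25 (2.96%) and edgeR's exact test called 11 of 25 (3.66%). Without KO 2 there were 12 of 31 called higher (5.64% of all genes), without WT 1 6 of 30 (0.809%) and without WT 2 9 of 31 (1.54%), whereas without KO 1 Sparc alone was called, 1 of 26 (0.803%).

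**Figure D1:**
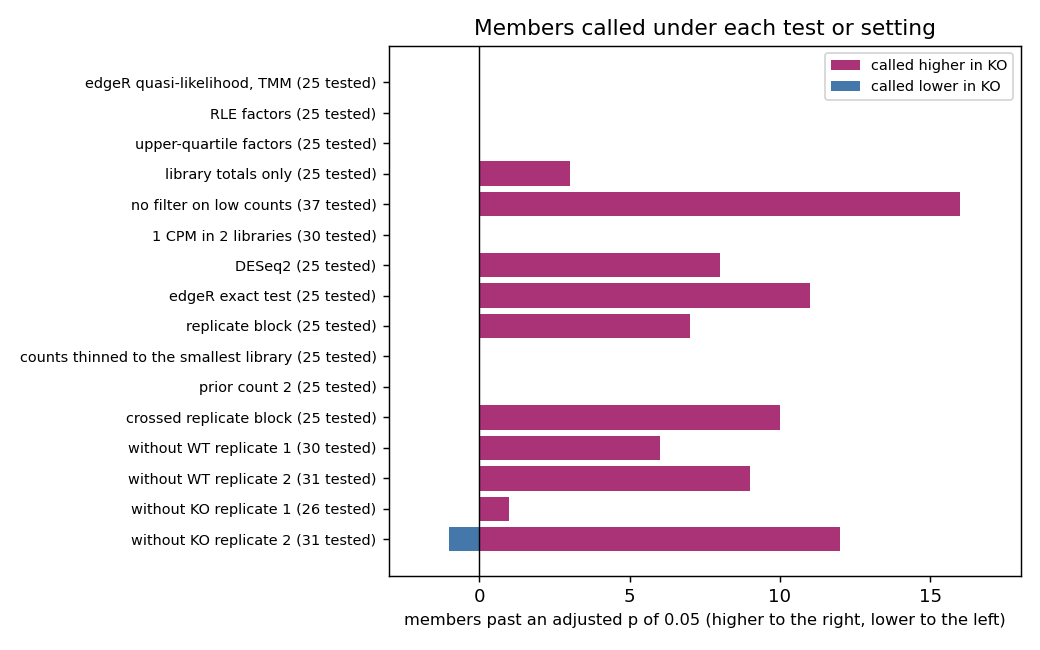
Number of set genes past an adjusted p of 0.05 under each test or setting, with those called higher in KO to the right of 0 and those called lower to the left, and the number tested in parentheses. The count was 0 in the quasi-likelihood test and reached 16 with no filter on low counts.

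Summed over all 38 genes, the set took 0.370% and 0.324% of gene counts in WT 1 and WT 2 and 0.449% and 0.369% in KO 1 and KO 2. WT 1 lay above KO 2, so the groups overlapped, and the means, 0.347% ± 0.0326 in WT and 0.409% ± 0.0562 in KO (SD, n = 2 each), were a ratio of 1.18 apart. Vim, Thbs1 and Fn1 made up most of this sum in every library, and without Sparc, Fn1 and Vim the ratio was 1.67. In these bulk libraries, fewer cells of a type and less RNA per cell cannot be told apart.

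Per kilobase of exon, so that genes can be compared, Vim had by far the highest level (a mean of 390 CPM per kilobase over the 4 libraries). Thbs1 followed at 93.2, Timp2 at 70.5, Fn1 at 46.0 and Mmp14 at 23.1. The order differed by library: in WT 1 Mmp14, at 27.5, was above Fn1, at 18.8, and in KO 1 Timp2, at 29.5, was under Fn1, at 53.8, and Serpinh1, at 43.1. Sparc stood at 1.97 and 1.49 CPM per kilobase in WT, under Eng at 11.2 and 17.8, and at 63.0 and 12.6 in KO, where KO 1 put it above Fn1. At the other end, Cldn5 had 0 counts in all 4 libraries, and Cspg4, Tek and Esam had at most 3 counts in all. There were 14 genes with 0 counts in both WT libraries, 9 of which had counts in both KO libraries, and 14 others had at least 20 counts in every library. The share of all genes with 0 counts in WT and counts in KO was not computed. More genes of any kind had a count in KO, 18655 and 16656 against 15684 and 15804 in WT.

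**Figure D2:**
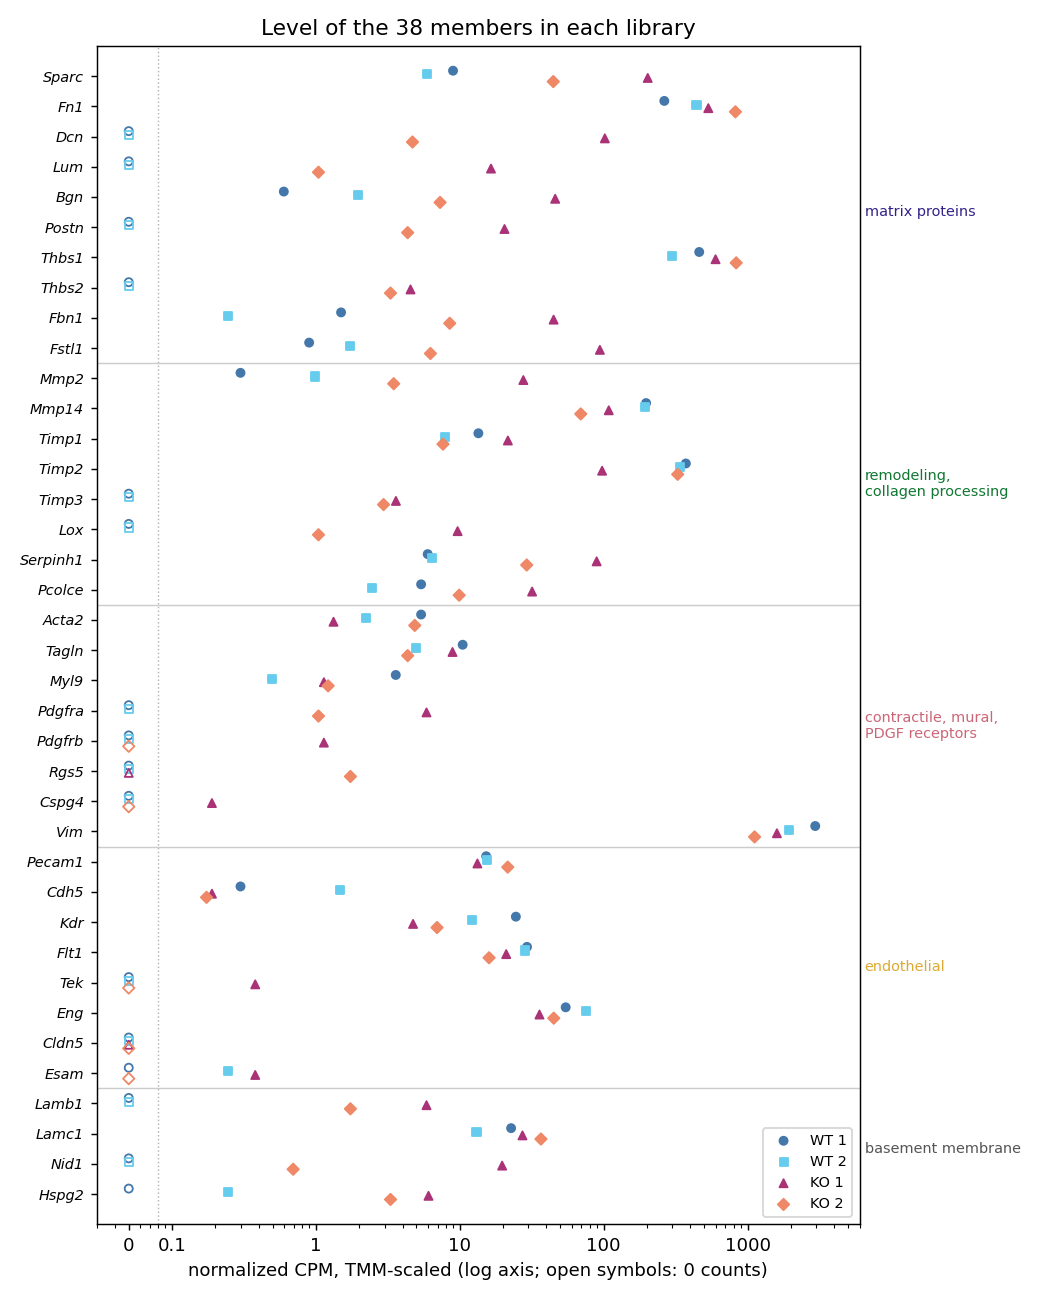
Level of each set gene in each library, as normalized CPM on a log axis, grouped by role, with open symbols at the left for 0 counts. Vim lies highest in every library, and 4 of the 10 matrix genes have counts in the libraries labeled KO alone.

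Of the 10 matrix proteins, all 10 had both KO libraries above both WT libraries, among them the 9 that could be tested (25.3% of all genes tested). The 9 had a median log2 fold change of 4.95. Without KO 1 the middle fitted value of the 9 was 2.58, that of Sparc. None of the 9 was called by the main test, and 7 were higher at an unadjusted p under 0.05 (9.44% of all genes). Together they took 0.0613% and 0.0713% of gene counts in WT and 0.196% and 0.186% in KO, a ratio of 2.88. That near equality of the KO libraries was set by the abundant Fn1 and Thbs1, since most of the other matrix genes were several times higher in KO 1 than in KO 2.

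Sparc encodes a secreted protein that binds collagen and calcium (ENSMUSG00000018593.13, chr11:55394500-55423183, GRCm38/mm10, minus strand). WT 1 and WT 2 held 30 and 24 counts of it, and KO 1 and KO 2 held 1069 and 257. The groups did not overlap, and the KO libraries differed 4.53-fold from each other (95% interval 3.95 to 5.22, counting error only). In normalized CPM the means were 7.44 ± 2.16 in WT and 123 ± 112 in KO (SD, n = 2 each), a log2 fold change of 4.05 ± 0.75 (SE) with an edgeR adjusted p of 0.0531. Sparc was past the threshold in 10 of 15 other settings, with edgeR or DESeq2 adjusted p from 7.85e-09 to 0.0608, and its log2 fold change without KO 1 was 2.58. Melanoma markers were also higher in KO, at 0.0226% and 0.0268% of gene counts in WT and 0.239% and 0.132% in KO, a ratio of means of 7.52. The fibrillar collagen, T cell and dendritic cell lists were higher too, at ratios of 142, 21.1 and 3.57. Macrophage or monocyte and platelet or megakaryocyte markers had 0.781 and 0.821. Per 100 counts of the melanoma list Sparc had 3.31 and 2.11 counts in WT and 9.96 and 3.63 in KO, a measure chosen after its values were seen. The cell source of the Sparc and Serpinh1 counts was not tested.

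Fn1, the gene of fibronectin, an adhesive glycoprotein (ENSMUSG00000026193.15, chr1:71585520-71653200, minus), had 882 and 1793 counts in WT and 2818 and 4741 in KO. KO was above WT in both libraries, with KO 2 the highest, and the log2 fold change was 0.94 ± 0.51 (SE; edgeR adjusted p = 0.447). Thbs1, the gene of thrombospondin 1, which activates latent TGF-beta and restrains vessel growth (ENSMUSG00000040152.8, chr2:118111876-118127133, plus), had 1542 and 1205 counts in WT and 3164 and 4799 in KO. Its pattern was like that of Fn1, with a log2 fold change of 0.92 ± 0.49 (SE; edgeR adjusted p = 0.446). Both were lower in KO 1 than in KO 2, at ratios of 0.648 and 0.719, and Vim and Timp2, which macrophages are also known to make, had ratios of 1.43 and 0.298, beside 0.688 for the summed macrophage or monocyte markers. Those markers overlapped between the groups, with WT 1 at 2.98% of gene counts and KO 2 at 3.15%, and their most abundant gene, Lyz2, had 29370, 57521, 67802 and 58896 counts in library order. Whether macrophages contribute to these values was not tested.

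Decorin and lumican are small leucine-rich proteoglycans that bind collagen fibrils. Their genes, Dcn (ENSMUSG00000019929.16, chr10:97479609-97518143, plus) and Lum (ENSMUSG00000036446.5, chr10:97565128-97572703, plus), are neighbors with 46984 bases between them. Dcn had 0 counts in both WT libraries and 538 and 27 in KO 1 and KO 2, and Lum had 0 in both WT libraries and 87 and 6 in KO. Against 3 counts in each WT library, Dcn was at least 65.1-fold higher and Lum at least 10.7-fold higher, bounds that are 5.73-fold and 1.27-fold without KO 1. Dcn had an edgeR adjusted p of 0.0822, and Lum had too few counts to be tested. Within the KO group both were far from even: KO 1 was 21.7 times KO 2 for Dcn (14.8 to 33.3) and 15.8 times for Lum (6.98 to 44.3).

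Other matrix genes were also highest in KO 1. Bgn, for the related proteoglycan biglycan, had 2, 8, 243 and 42 counts in the order WT 1, WT 2, KO 1, KO 2 (edgeR adjusted p = 0.117). Fbn1, for fibrillin-1 of microfibrils, had 5, 1, 237 and 49 (edgeR adjusted p = 0.0822), with 20.1% of its exon bases shared with Gm9913 on the opposite strand. Fstl1, for a secreted follistatin-like glycoprotein, had 3, 7, 497 and 36 (edgeR adjusted p = 0.111). These 3 had log2 fold changes of 4.31 ± 1.01, 4.95 ± 1.06 and 5.20 ± 1.20 (SE), and without KO 1 the fitted values were 2.44, 3.30 and 2.20. Postn, for periostin, had 0 counts in both WT libraries and 108 and 25 in KO, at least 15.1-fold higher, or 5.30-fold without KO 1 (edgeR adjusted p = 0.0700 with all libraries). Thbs2, a thrombospondin of fibroblasts, had 0 in both WT libraries and 24 and 19 in KO, at least 4.79-fold higher (edgeR adjusted p = 0.137). Thbs2 was the exception among these genes within the KO group, with a ratio of KO 1 to KO 2 of 1.38 whose interval, 0.723 to 2.66, includes 1.

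**Figure D3:**
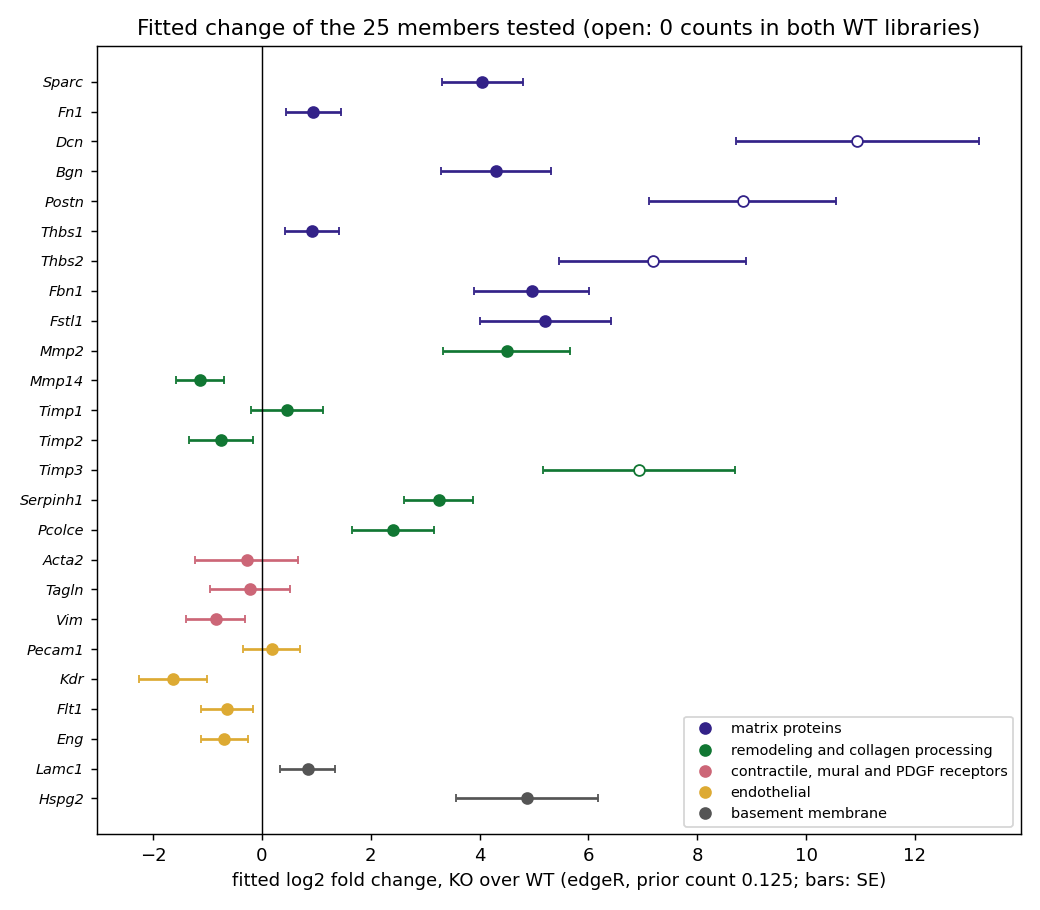
Fitted log2 fold change of KO over WT for the 25 set genes tested, with the SE from edgeR's quasi-likelihood fit as bars and open symbols for genes with 0 counts in both WT libraries, whose fitted value depends on the prior count. The matrix genes lie to the right of 0, and Kdr, at -1.64, lies farthest to the left.

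Genes that cut the matrix or ready collagen for assembly were mixed. Of 8, 5 had both KO libraries above WT, 2 had both below and 1 overlapped. Of the 7 that could be tested, 4 were above and 2 below (25.3% and 22.6% of all genes tested). With libraries scaled by their totals only, Mmp14 alone was below and Timp2 overlapped. None of the 7 was called, while 4 were higher and 1 lower at an unadjusted p under 0.05 (9.44% and 4.23% of all genes). The median log2 fold change of the 7 was 2.41, and without KO 1 their middle fitted value was 1.34, in both cases that of Pcolce. The summed share of the 8 was 0.0495% and 0.0527% in WT and 0.0459% and 0.0482% in KO, since abundant Timp2 and Mmp14 offset the others.

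Serpinh1 encodes HSP47, the collagen chaperone of the endoplasmic reticulum (ENSMUSG00000070436.12, chr7:99345376-99353239, minus), and its promoter is printed above. It had 20 and 26 counts in WT and 472 and 168 in KO. The WT libraries were close to each other, at 6.19 ± 0.301 normalized CPM, and KO stood at 59.3 ± 42.6 (SD, n = 2 each). The log2 fold change was 3.25 ± 0.63 (SE; edgeR adjusted p = 0.0612), it was 2.22 without KO 1, and it was past the threshold in 7 of 15 other settings. Per 100 counts of the melanoma marker list it had 2.21 and 2.28 counts in WT and 4.40 and 2.37 in KO, also computed after its values were seen, so that KO 2 lay near both WT libraries on that measure. Pcolce, for an enhancer of procollagen cleavage, had 18, 10, 168 and 57 counts in library order (log2 fold change 2.41 ± 0.76, or 1.34 without KO 1, edgeR adjusted p = 0.223 with all libraries). Lox, for the enzyme that crosslinks collagen and elastin, had 0 in both WT libraries and 51 and 6 in KO, at least 6.54-fold higher and not tested, a bound that is 1.27-fold without KO 1.

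Mmp2, a secreted gelatinase of fibroblasts, had 1 and 4 counts in WT and 146 and 20 in KO, a log2 fold change of 4.50 ± 1.17 (SE; edgeR adjusted p = 0.148) that was 2.34 without KO 1. Mmp14, the membrane-anchored protease that activates pro-MMP2 (ENSMUSG00000000957.11, chr14:54431612-54445364, plus), had 659 and 789 in WT and 573 and 399 in KO. Protease and activator therefore lay on opposite sides: Mmp14 was lower in both KO libraries, at -1.14 ± 0.44 (SE; edgeR adjusted p = 0.300), without passing the test. Among the inhibitors, Timp2 (ENSMUSG00000017466.9, chr11:118301069-118355740, minus) had 1245 and 1383 counts in WT and 515 and 1882 in KO. KO 1 was the low library, and KO 2 was near the WT libraries once scaled, at 327 normalized CPM against 341 and 372. The log2 fold change of Timp2 was -0.75 ± 0.59 (SE; edgeR adjusted p = 0.596), and without KO 2 it was called lower, at -1.91 (edgeR adjusted p = 0.0143). Timp1 overlapped between the groups, with 45, 32, 114 and 44 counts. Timp3, a matrix-bound inhibitor, had 0 in both WT libraries and 19 and 17 in KO, at least 4.0-fold higher (edgeR adjusted p = 0.153), but shares 21.3% of its exon bases with Syn3 on the opposite strand.

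Contractile and mural genes gave no call. Of 8, Pdgfra alone had both KO libraries above WT, Vim alone had both below, and 6 overlapped. Vim overlapped too when libraries were scaled by their totals only. Of the 3 that could be tested, 0 were above and 1, Vim, was below (25.3% and 22.6% of all genes tested). The 3 that could be tested had a median log2 fold change of -0.28 and none had an unadjusted p under 0.05. Vim, for the intermediate filament of mesenchymal cells and leukocytes (ENSMUSG00000026728.9, chr2:13573927-13582826, plus), had 9874 and 7909 counts in WT and 8449 and 6442 in KO. Scaled, it stood at 2451 ± 710 normalized CPM in WT and 1359 ± 340 in KO (SD, n = 2 each), a log2 fold change of -0.85 ± 0.54 (SE; edgeR adjusted p = 0.508).

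Acta2, smooth muscle actin and the usual marker of myofibroblasts and mural cells (ENSMUSG00000035783.9, chr19:34241090-34255590, minus), had 18 and 9 counts in WT and 7 and 28 in KO. Tagln, for the actin-binding protein SM22 (ENSMUSG00000032085.5, chr9:45929619-45936058, minus), had 35, 20, 47 and 25 in the same order, and 62.4% of its exon bases lie under Gm48529 on the opposite strand. Both groups overlapped for both genes, with log2 fold changes of -0.28 ± 0.94 and -0.21 ± 0.74 (SE; edgeR adjusted p = 0.920 and 0.922) that turned to 0.05 and 0.17 when libraries were scaled by their totals only, a scaling that moved the median of all genes from 0.05 to 0.38. Myl9, a light chain of smooth muscle myosin, had 12, 2, 6 and 7 counts.

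Receptors and pericyte genes were near the limit of detection. Pdgfra, the PDGF receptor of fibroblasts, had 0 in both WT libraries and 31 and 6 in KO, at least 4.22-fold higher and not tested in the main fit, or 1.27-fold without KO 1. Pdgfrb, the receptor of pericytes, had 6 counts in KO 1 and none elsewhere, while Rgs5, a pericyte signaling regulator, had 10 in KO 2 and none elsewhere. Cspg4, for the pericyte proteoglycan NG2, had 1 count, in KO 1. Both PDGF receptors had more counts in KO 1 and Rgs5 in KO 2, and Pdgfra had a ratio of KO 1 to KO 2 of 5.63 (2.32 to 16.5) and was called higher in KO with no filter on low counts.

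Endothelial genes gave no call. Of 8, 4 had both KO libraries below both WT libraries, 4 overlapped and 0 were above. Of the 4 that could be tested, 3 were below and 0 above, against 22.6% and 25.3% of all genes tested. With libraries scaled by their totals only, 2 were below (Kdr and Cdh5), 5 overlapped and 1, Pecam1, was above, and Cdh5 has at most 6 counts in any library. The 4 that could be tested had a median log2 fold change of -0.67, none was called, and 1 (Kdr) was lower at an unadjusted p under 0.05 (4.23% of all genes). Their summed share was 0.0103% and 0.0127% in WT and 0.00893% and 0.00959% in KO, a ratio of 0.804.

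Junction genes and the angiopoietin receptor of endothelium were at or near 0. Cldn5, for the tight junction protein claudin-5, had no count in any library, Tek, for the angiopoietin receptor, had 2 in KO 1, Esam had 1 in WT 2 and 2 in KO 1, and Cdh5, for VE-cadherin, had 1, 6, 1 and 1. Nearly all counts of the endothelial group lay in the remaining 4 genes. Eng, for endoglin, a TGF-beta co-receptor that activated macrophages carry as well (ENSMUSG00000026814.16, chr2:32646595-32682669, plus), had 182 and 307 counts in WT and 189 and 259 in KO. In normalized CPM both KO libraries were below WT, at a log2 fold change of -0.69 ± 0.44 (SE; edgeR adjusted p = 0.513).

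Flt1, for VEGF receptor 1, which monocytes also carry (ENSMUSG00000029648.13, chr5:147561604-147726011, minus), had 98 and 116 counts in WT and 111 and 92 in KO. Its counts overlapped, and after scaling both KO libraries were below WT, a log2 fold change of -0.65 ± 0.47 (SE; edgeR adjusted p = 0.569). Kdr, for VEGF receptor 2 (ENSMUSG00000062960.10, chr5:75932827-75978458, minus), had 82 and 49 in WT and 25 and 40 in KO, a log2 fold change of -1.64 ± 0.62 (SE; edgeR adjusted p = 0.299). Kdr lies 734611 bases from Pdgfra on chromosome 5, and the pair were ordered oppositely between the groups. Pecam1, for CD31, an adhesion molecule of endothelium, platelets and leukocytes (ENSMUSG00000020717.19, chr11:106654217-106750628, minus), had 51, 63, 70 and 124 counts, with overlapping groups and a log2 fold change of 0.18 ± 0.53 (SE; edgeR adjusted p = 0.912).

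The 4 basement membrane genes had both KO libraries above both WT libraries. Of these, 2 could be tested (25.3% of all genes tested had both above), and neither passed the test. Lamc1, the laminin gamma 1 chain (ENSMUSG00000026478.14, chr1:153218922-153332786, minus), had 76 and 53 counts in WT and 144 and 211 in KO, a log2 fold change of 0.84 ± 0.51 (SE; edgeR adjusted p = 0.490). Lamb1, its beta 1 partner, had 0 in both WT libraries and 31 and 10 in KO, at least 4.65-fold higher, or 2.12-fold without KO 1, and not tested. Chains of the same laminin trimer therefore differed in the libraries labeled WT, where the gamma chain was present and no beta 1 count was seen. Nid1, for nidogen-1, which links laminin to collagen IV (ENSMUSG00000005397.8, chr13:13437551-13512269, plus), had 0 in both WT libraries and 104 and 4 in KO, at least 12.5-fold higher and not tested. That bound rests on KO 1, since the 4 counts of KO 2, 0.695 normalized CPM, lie under the mean of 0.818 that 3 counts equal in WT. Hspg2, for perlecan (ENSMUSG00000028763.17, chr4:137468769-137570630, plus), had 0 and 1 counts in WT and 32 and 19 in KO, a pooled ratio of 34.2 (exact Poisson 95% interval 5.87 to 1377) with an edgeR adjusted p of 0.160.

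The libraries labeled KO differed from each other by more than counting error in most genes of the set and in most genes overall. Of 31 genes with counts in both KO libraries and at least 10 over them, which leaves out Rgs5 with its 0 and 10 counts, 19 had a ratio of KO 1 to KO 2 above 1 with a counting interval that excluded 1, 7 had one below, and 5 included 1. Of all 13637 genes kept by the same rule, 34.7% were above in this way and 29.9% below. Between WT 1 and WT 2, 9 of 19 set genes were above and 2 below, against 23.5% and 22.1% of all 12117 genes. In 9 of the 31 genes the ratio of KO 1 to KO 2 was above 5 (4.92% of all genes; 1.41% between the WT libraries), from 5.27 for Fbn1 to 28.3 for Nid1 (10.7 to 106). The 14 genes with 0 counts in both WT libraries summed to 1002 counts in KO 1 and 130 in KO 2, a ratio of 8.40 (6.99 to 10.2). Dcn gave 538 of the 1002, and without it the ratio was 4.91, while Thbs2 and Timp3, at 1.38 and 1.22, and Rgs5 did not share the excess in KO 1. Fibrillar collagen genes, which are no part of the set, had a ratio of 7.04, with Col1a1 at 9, 0, 945 and 279 counts, Col1a2 at 15, 12, 1214 and 206, and Col3a1 at 7, 1, 3836 and 457. These 3 collagens were past the threshold and higher in KO in the main test (edgeR adjusted p = 0.0445, 0.0452 and 0.0295). DESeq2 did not call Col1a1 (adjusted p = 0.107), upper-quartile scaling in edgeR ended the calls of Col1a1 and Col1a2 (adjusted p = 0.0540 and 0.0555), and Sparc, at 0.0531 in the main test, lay just outside the same limit. T cell markers had a ratio of 1.79, melanoma markers 1.65, dendritic cell markers 1.19, macrophage or monocyte markers 0.688 and platelet or megakaryocyte markers 0.169. Apart from Thbs2, the matrix genes with at most 10 counts over both WT libraries had KO 1 to KO 2 ratios from 4.71 for Postn to 21.7 for Dcn. Col1a1, Col1a2 and Col3a1 alone had ratios of 3.69, 6.43 and 9.15. The genes with at least 20 counts in every library ranged from 0.298 for Timp2 to 4.53 for Sparc. Of these, Fn1, Thbs1, Pecam1, Kdr, Lamc1 and Eng were also under 1. Flt1, Vim and Mmp14 were at 1.32, 1.43 and 1.57, and Tagln, Timp1 and Serpinh1 at 2.05, 2.82 and 3.06. These are ratios of 2 libraries, and the part of any cell type in them was not tested.

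**Figure D4:**
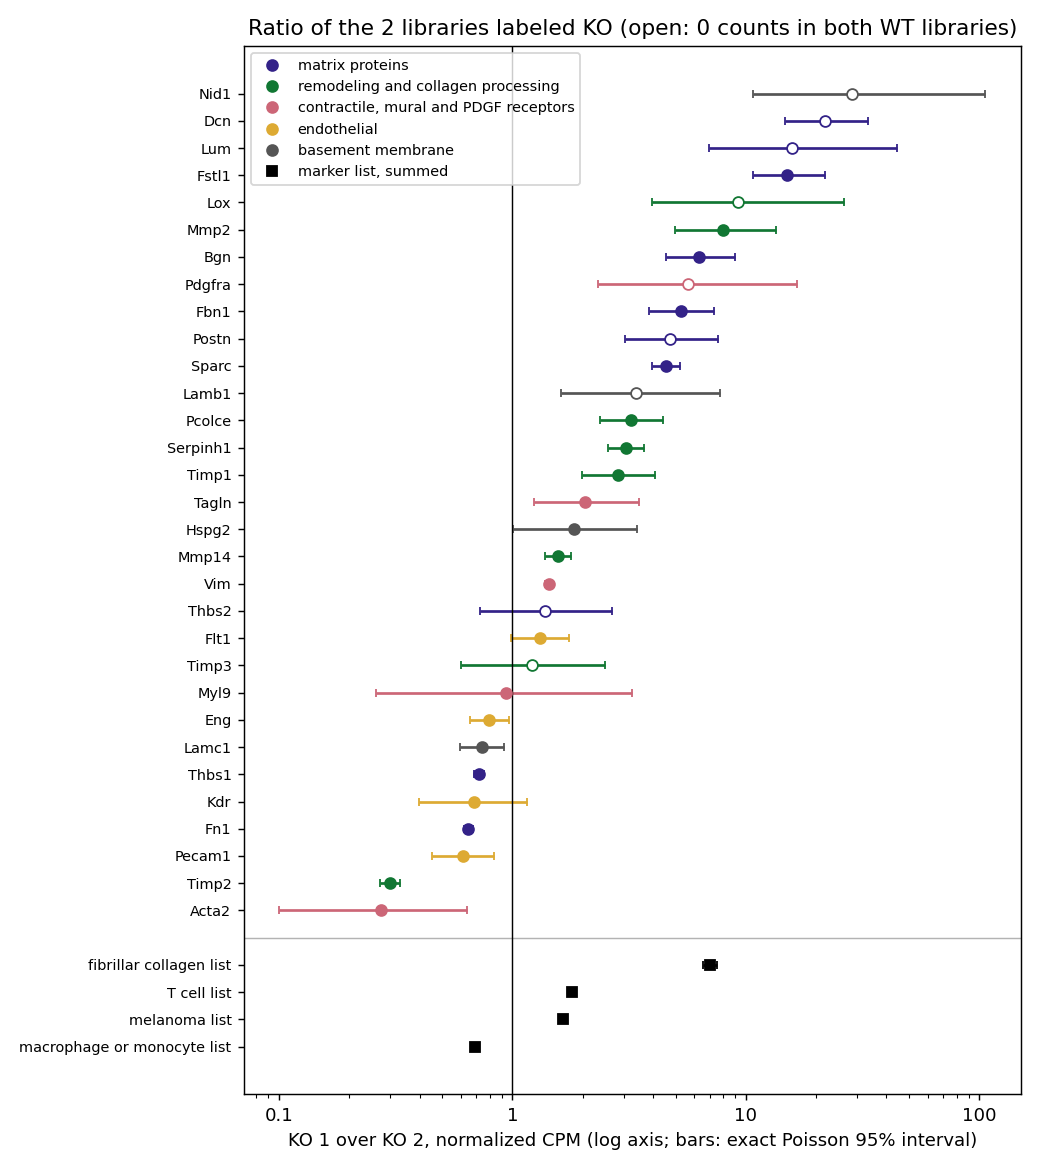
Ratio of KO 1 to KO 2 in normalized CPM on a log axis, with exact Poisson 95% intervals, for the 31 set genes with counts in both of these libraries and at least 10 in all, and for 4 marker lists, with open symbols for genes at 0 counts in both WT libraries. Nid1, Dcn, Lum and Fstl1 lie above 15, Timp2 and Acta2 lie near 0.3, and the fibrillar collagen list lies at 7.04.

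Related genes outside the set were counted in the same way. Of 51 further fibroblast, mural, endothelial and basement membrane genes found in the tables, 17 could be tested and 0 were past an adjusted p of 0.05 in edgeR's quasi-likelihood test, while DESeq2 called 5 higher (2.96% of all genes). Of 23 fibroblast and matrix genes, 13 had both KO libraries above both WT libraries and 0 had both below. Among the 10 of this list that could be tested, 8 were above and 0 below (25.3% and 22.6% of all genes tested). Of its 10 tested genes 8 had an unadjusted p under 0.05 in the higher direction (9.44% of all genes), and the median log2 fold change was 2.58. The list took 0.00981% and 0.00617% of gene counts in WT and 0.0544% and 0.0149% in KO, and KO 1 was 3.30 times KO 2. The nearest to the threshold, named after their values were seen, were Serpinf1, for a secreted serpin that restrains vessel growth, at 1, 2, 173 and 48 counts (edgeR adjusted p = 0.0510), and Fbln2, for the matrix protein fibulin-2, at 0, 0, 110 and 39 (edgeR adjusted p = 0.0518).

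Of 15 further endothelial genes, 8 had at most 3 counts over all libraries, and Robo4, Sox17 and Erg, the last of them an endothelial transcription factor, had none. Others were present in every library, with Vwf, for von Willebrand factor, at 33, 31, 13 and 44 counts and Egfl7 at 24, 14, 36 and 18, named after their values were seen. The 3 that could be tested had a median log2 fold change of -0.11 and no unadjusted p under 0.05. Of these 3, 0 had both KO libraries above WT (25.3% of all genes tested), and of all 15, 2 did, Ecscr and Cd34. The summed share of the 15 was 0.00154% and 0.00160% in WT and 0.00397% and 0.00175% in KO, a ratio of 1.82 that was 1.11 without KO 1, where Cd34 gave 83 and Ramp2 31 of the 178 counts. The endothelial genes of the set had a ratio of 0.804. Of 8 further mural genes, 1 could be tested, and it overlapped between the groups. Both KO libraries were above WT for 2 that were not tested (25.3% of all genes tested), Mcam at 0, 0, 38 and 11 counts and Notch3 at 0, 0, 1 and 1, which is below 3 counts. The summed share of the 8 was 0.000423% and 0.000399% in WT and 0.00109% and 0.000966% in KO, a ratio of 2.51 against 0.719 for the contractile and mural genes of the set, most of whose counts are Vim. Without Mcam the further mural genes had 17, 17, 11 and 41 counts, a ratio of 1.23. Of 5 further basement membrane genes, 3 had both KO libraries above WT, and so did 2 of the 3 tested (25.3% of all genes tested). At an unadjusted p under 0.05, 1 of the 3 tested was higher (9.44% of all genes).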

How the data were processed

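RNA was measured in 4 libraries, grouped by their titles into WT 1, WT 2, KO 1 and KO 2. Raw read counts by gene, in whole numbers, were deposited as a table for each library, and per the study's methods and the submitters' processing notes they came from HISAT2 2.1.0 on mm10 and HTSeq 0.11.0. The annotation, the strand setting and any trimming are not given in the sources used here, so reads of overlapping or antisense genes may be mixed. Rows that name no gene, 71.2% to 79.5% of reads, were left out. Of 55367 symbols, 53365 (96.4%) matched GENCODE M21 (GRCm38/mm10), the source of identifiers and positions, which are 1-based.

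Counts were tested in R 4.3.3 with edgeR 4.0.16: genes kept by filterByExpr (minimum count 10, minimum total 15), TMM factors, the quasi-likelihood F test with group as the only term over all 4 libraries, two-sided, Benjamini-Hochberg adjustment over all genes and a threshold of 0.05. Fold changes used a prior count of 0.125, and the SE was the log2 fold change divided by the square root of F. A fold against 0 counts in a group is a lower bound against 3 counts in each of its libraries. Intervals at the 95% level are exact. They and the bounds hold counting error alone, as the sources name no molecular identifiers and PCR reads are not independent molecules. The biological coefficient of variation was 42.5%.

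The alternatives were RLE, upper-quartile and no scaling factors, no filter, a filter of 1 CPM in 2 libraries, DESeq2 1.42.0, edgeR's exact test, a prior count of 2, libraries thinned to the depth of the shallowest, the replicate number as a block, and each library left out in turn. With 1 library left in a group, that library was taken to vary like the other group. Named genes were those past the threshold, the 3 of each role with the highest mean CPM, and all others by their counts. The members and lists were chosen with earlier results of these data known, so no p is given for a list or a summed share. Ctgf, a listed fibroblast gene, was not found under that symbol. Promoter starts were checked against GENCODE transcripts (21 of 26 matched over their first 25 bases). Scripts were tested on simulated data, and figures came from matplotlib 3.10.9 in Python 3.11.15.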

Additional observations from a re-analysis of the deposited data

How the results depend on the processing

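The directions of Sparc, Fn1, Dcn, Bgn, Postn, Thbs1, Thbs2, Fbn1, Fstl1, Mmp2, Timp3, Serpinh1, Pcolce, Lamc1 and Hspg2 (higher) and of Mmp14, Timp2, Vim, Kdr, Flt1 and Eng (lower) held in all 15 alternatives. The number of set genes called higher, 0 in the main test, RLE, upper-quartile, 1 CPM filter, thinned and prior count settings, was 3 with library totals only, 16 with no filter, 8 with DESeq2, 11 with the exact test and 1 to 12 with a library left out (1 without KO 1). The number called lower was 0 to 1 with a library left out. Further stromal genes called higher were 3, 13, 5 and 6 in the same 4 settings and 0 to 14 with a library left out. Over all genes 133, 505, 350 and 433 were called higher in these settings, and 99 to 725 with a library left out, against 65. Called lower over all genes were 78 with no filter, 66 with DESeq2, 70 with the exact test and 7 to 524 with a library left out, against 3. The cause of these moves was not tested.

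With the replicate number as a block, 7 set genes, 4 further stromal genes and 201 genes in all were called higher and 14 in all lower. Same-numbered libraries did not deviate together (a correlation of -0.179 over 11837 genes), so they share only a number. Crossing the numbers, a choice made after seeing the data, gave 10, 7, 535 and 112.

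The median log2 fold change of the set was 1.26 with library totals only, 2.94 with no filter, 2.82 with the 1 CPM filter and 1.17 to 3.81 with a library left out, against 0.94. Direction was lost for Acta2 (0.05002 with library totals only, -1.52 to 0.45 with a library left out), Tagln (0.17, and -0.82 to 0.35), Timp1 (-0.48 to 0.98) and Pecam1 (-0.25 to 0.48). The summed share had a ratio of 1.67 without Sparc, Fn1 and Vim. At these depths a gene with 0 counts in a library may be present at up to 0.521 to 0.897 normalized CPM.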
